A study of Homo sapiens with 4 samples.

Results

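SF3A and SF3B are the protein subcomplexes that turn the U2 small nuclear ribonucleoprotein (U2 snRNP) into a particle able to hold the branch point of an intron. The messenger RNAs of their subunits were followed here in an RNA immunoprecipitation of RBM39. The 10 genes were taken by symbol from the count table. They are the 3 SF3A genes SF3A1, SF3A2 and SF3A3 and the 7 SF3B genes SF3B1, SF3B2, SF3B3, SF3B4, SF3B5, SF3B6 and PHF5A. They are 10 of the 56303 features in the table, and all 10 passed the count filter (10 or more counts in 2 or more libraries) that left 19210 features.

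The cells were Huh7, an established human hepatocellular carcinoma line, given a control hairpin (shControl) or a plasmid-borne hairpin against RBM39 (shRBM39). Each culture gave 1 library of input RNA and 1 library of RNA precipitated with an RBM39 antibody (IP), so there were 4 libraries with 1 per group. An IP with a control antibody was not analysed here, so recovery that depends on RBM39 cannot be told apart from recovery that does not. The labels do not say how many clones each culture held or how long after transfection it was collected.

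Total counts ran from 20858382 (shControl input) to 45812488 (shRBM39 IP), and both IP libraries were deeper than both inputs. The transcript targeted by the hairpin was barely lower in the input labelled shRBM39, with RBM39 at 404 CPM (counts per scaled library of 1000000) in shControl and 370.3 CPM in shRBM39 input (log2 ratio -0.13, -0.17 to -0.08). Directions below therefore refer to the libraries labelled shRBM39. All 10 hepatocyte and hepatoma markers passed the count filter, ALB standing at 2963 and 2212 CPM in the inputs, and their summed level, shControl first, was 11081 and 11177 CPM in the 2 inputs and 8913 and 5076 CPM in the 2 IPs. Of 12 markers of other cell types 5 passed the filter (EPCAM, PECAM1, CD14, COL1A1 and SYP), and the 12 summed to 83.3 and 96.6 CPM in the inputs and 42.5 and 48.9 CPM in the IPs. Most of that was the epithelial marker EPCAM, at 74.6 and 85.6 CPM in the inputs, while DCN and HBB had 0 counts in each library.

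U2 snRNP recognises the branch point sequence upstream of the 3' splice site. SF3B1, a large scaffold of helical repeats, and PHF5A together enclose the branch point adenosine, and drugs such as pladienolide bind at that pocket. SF3A links the SF3B module to the rest of the particle. RBM39 is an RNA-binding splicing factor related to U2AF2, and its protein is known to contact the amino-terminal part of the SF3B1 protein. The values here are of the subunits' messenger RNAs and do not measure that protein contact.

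The start regions of the genes are shown first. RefSeq windows on GRCh38.p14, each covering 250 bases before and 50 bases after a gene start, were at hand for 8 of the 10 genes. The letters CCGGAAG, the core that ETS family transcription factors are known to bind, were searched on both strands after the windows had been read. They occurred in 6 of the 8 genes, against 16.5% of 15843 protein-coding genes with such a window and 10.3% of all 35116 windows. Since the letters were picked from these same windows, the shares are a description and nothing is read from their difference. The 5 stretches below hold them on the strand of the gene, printed 5′ to 3′ with the match in capitals.
SF3A1 (chr22:30356925-30356955, minus strand): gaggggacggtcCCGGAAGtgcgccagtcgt
SF3A2 (chr19:2236803-2236833, plus strand): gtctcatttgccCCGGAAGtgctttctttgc
SF3B2 (chr11:66052299-66052329, plus strand): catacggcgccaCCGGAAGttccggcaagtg
SF3B4 (chr1:149927811-149927841, minus strand): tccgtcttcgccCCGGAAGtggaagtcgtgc
SF3B6 (chr2:24076467-24076497, minus strand): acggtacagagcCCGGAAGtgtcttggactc

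SF3A3 held the same letters on the opposite strand only. SF3B1 and SF3B5 were the 2 genes without a match, which says only that these letters are not in their windows. RefSeq gives SF3B1 2 overlapping windows, chr2:197434979-197435278 and chr2:197435044-197435343, and neither holds the letters. The one that reaches further upstream is printed in full because its transcript stood apart from the other 9 in the IP.
SF3B1 (chr2:197435044-197435343, minus strand): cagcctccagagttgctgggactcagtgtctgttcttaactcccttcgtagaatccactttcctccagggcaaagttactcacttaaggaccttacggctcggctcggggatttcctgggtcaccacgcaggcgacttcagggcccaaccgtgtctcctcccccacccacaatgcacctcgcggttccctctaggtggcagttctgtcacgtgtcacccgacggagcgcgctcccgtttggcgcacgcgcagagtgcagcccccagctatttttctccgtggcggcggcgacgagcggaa

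The recovery of each subunit transcript was compared next, as the log2 ratio of IP over input after TMM scaling. To be listed as higher or lower, a feature needed a ratio of at least 1 in size, a 2-fold difference, and a 95% interval that excluded equality. With 1 library per group the intervals hold counting error alone, and they may understate that too, since no molecular identifiers mark copies of the same molecule. There is no replicate check and no p-value for these pairwise ratios. Since the RNA came from bulk cultures, more RNA per cell and more cells carrying it cannot be told apart.

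All 10 transcripts stood above their input level in the IP of both cultures, each with an interval above equality, but SF3B1 was the 1 transcript past 2-fold. An interval above equality was found for 34.1% of all features in shControl and 32.9% in shRBM39, and one below it, found for 0 of the 10, for 33.1% and 30.0%. Listing as higher applied to 7.70% of features in shControl and 5.29% in shRBM39, and listing as lower, which applied to 0 of the 10, to 11.3% and 9.00%. The median log2 ratio of the 10 was 0.57 in shControl and 0.66 in shRBM39, against -0.01 and 0.02 over all features and 0.08 and 0.07 over 12886 features with a protein-coding RefSeq symbol. Without SF3B1 the medians were 0.50 and 0.54. Among the features with a protein-coding symbol an interval above equality was found for 40.9% in shControl and 38.9% in shRBM39. One below it was found for 32.2% and 31.5%.

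**Figure D1:**
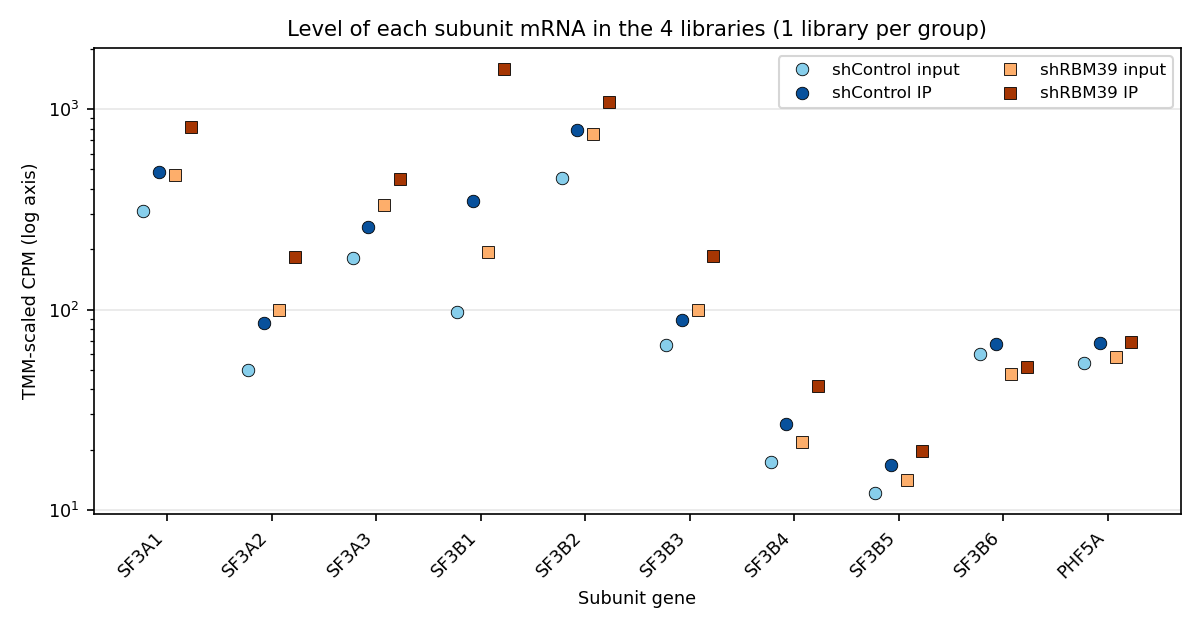
TMM-scaled CPM (log axis) of the 10 subunit transcripts, 1 point per library, with circles for shControl and squares for shRBM39 and the darker shade for the IP. SF3B1 spans 97.7 to 1580.3 CPM, while PHF5A stays between 54.2 and 69.1; points of different genes are not corrected for transcript length.

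SF3B1 lies on chromosome 2, 197389784 to 197435093 (hg38). In shControl it had 2106 input counts and 15766 IP counts, and in shRBM39 4196 and 65402. After scaling these 4 values were 97.7, 349, 193 and 1580.3 CPM. The shControl input was thus the lowest library, the shRBM39 input came next, and both IPs lay above both inputs. Its IP level was 3.57 times its input level in shControl (log2 1.84, 1.77 to 1.90) and 8.19 times in shRBM39 (log2 3.03, 2.99 to 3.08). It held rank 188 of the 19210 features by this ratio in shControl and rank 86 in shRBM39, and 24 features, SF3B1 included, stood at or above it in both cultures.

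Of the 3 SF3A genes, SF3A1 and SF3A2 had higher ratios than SF3A3 in both cultures. SF3A1, which carries SURP domains and a ubiquitin-like domain (chromosome 22, 30331988 to 30356894), had 311 CPM (input) and 486 CPM (IP) in shControl and 469.6 and 810.0 CPM in shRBM39, the order kept for the genes below. Its log2 IP over input was 0.65 (0.61 to 0.69) and 0.79 (0.75 to 0.82). The 2 IPs lay above the 2 inputs. SF3A2, a zinc finger protein (chromosome 19, 2236824 to 2248655), had 49.8, 85.5, 99.4 and 182 CPM. Its ratios were 0.78 (0.68 to 0.88) and 0.88 (0.81 to 0.95), and the shControl IP lay below the shRBM39 input. SF3A3, the third SF3A protein (chromosome 1, 37956975 to 37990022), had 181, 257, 333 and 449 CPM. Its ratios were 0.50 (0.45 to 0.56) and 0.43 (0.39 to 0.47), and here too the shControl IP lay below the shRBM39 input.

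Of the larger SF3B subunits, SF3B2 binds SF3B4 and helps join SF3B to the intron (chromosome 11, 66052364 to 66069308). It had 455, 785, 749 and 1087 CPM and ratios of 0.79 (0.75 to 0.82) and 0.54 (0.51 to 0.56). SF3B2 was highest of the 9 others in shControl, and in shRBM39 it stood below SF3B4, SF3B3, SF3A2 and SF3A1. SF3B3 is built of propeller domains and also belongs to the SAGA chromatin complex (chromosome 16, 70523816 to 70577668). It had 66.2, 88.6, 99.5 and 185 CPM, and its ratio was 0.42 (0.33 to 0.51) in shControl and 0.90 (0.83 to 0.97) in shRBM39. SF3B4, with RNA recognition motifs (chromosome 1, 149923317 to 149927803), was a low transcript of 17.3, 26.9, 21.9 and 41.4 CPM. Its ratios of 0.64 (0.47 to 0.81) and 0.91 (0.77 to 1.06) rest on 372 to 1712 counts per library.

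Of the 3 small subunits, PHF5A and SF3B6 had the lowest ratios of the 10 in both cultures, and SF3B5 lay above them. SF3B5, also a SAGA subunit (chromosome 6, 144094884 to 144095573), had 262, 760, 306 and 818 counts, or 12.2, 16.8, 14.1 and 19.8 CPM. Its ratios were 0.47 (0.26 to 0.68) and 0.49 (0.30 to 0.68), the widest intervals of the 10 genes in both cultures. PHF5A (chromosome 22, 41459717 to 41468692) had 54.2, 67.8, 58.1 and 69.1 CPM and ratios of 0.32 (0.23 to 0.42) and 0.25 (0.15 to 0.35). SF3B6, which binds SF3B1 and lies near the branch point (chromosome 2, 24067586 to 24076326), had 59.9, 67.2, 47.4 and 51.8 CPM. Its ratios were the lowest of the 10 in both cultures, 0.17 (0.07 to 0.26) and 0.13 (0.02 to 0.24). With libraries scaled to total counts the shRBM39 ratio was 0.01 (-0.09 to 0.12).

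**Figure D2:**
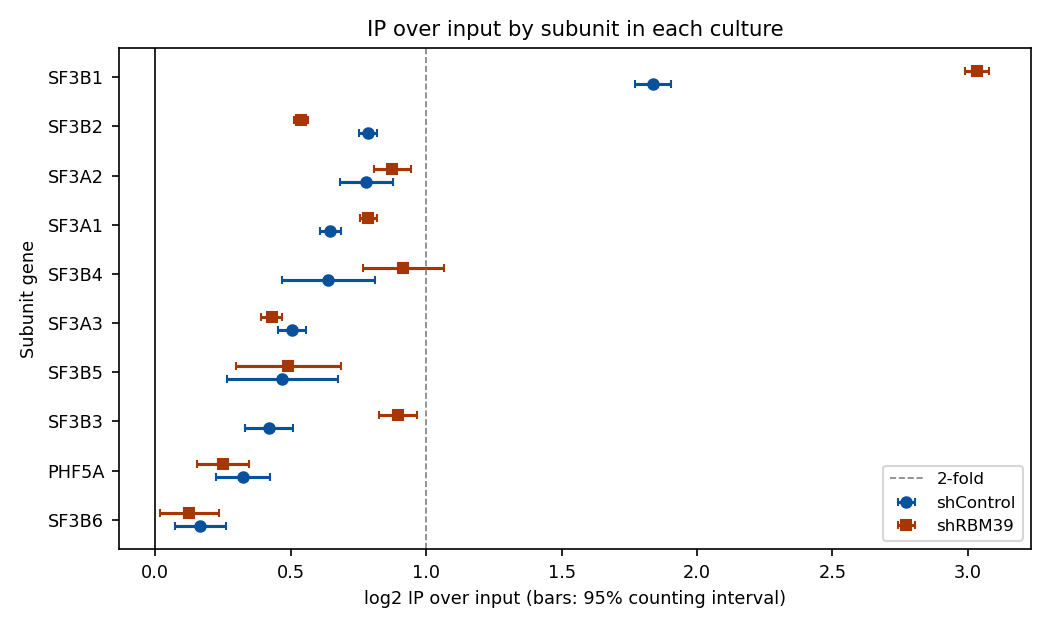
Log2 IP over input of each subunit transcript, circles for shControl and squares for shRBM39, with 95% counting intervals and a dashed line at 2-fold. SF3B1 lies at 1.84 and 3.03 and the other 9 between 0.13 and 0.91.

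Set against each other, 33 of the 45 pairs of subunits differed in log2 IP over input beyond their counting intervals in shControl. In shRBM39 the number was 38 of 45. No such share is given here for pairs of other features with similar counts. The intervals hold counting error alone, and each gene enters several pairs. The numbers of pairs are therefore not read as more variation among the subunits than among other genes. The 9 pairs that differed by at least 2-fold were those with SF3B1 in each culture. SF3B1 exceeded the next transcript, SF3B2, by 2.07-fold in shControl (log2 difference 1.05, 0.98 to 1.12). In shRBM39 it exceeded the next one, SF3B4, by 4.35-fold (2.12, 1.97 to 2.27). Such differences between 2 genes do not depend on the scaling of the libraries.

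The shControl order ran SF3B1, SF3B2, SF3A2, SF3A1, SF3B4, SF3A3, SF3B5, SF3B3, PHF5A, SF3B6. Of its 9 neighbouring pairs 6 did not differ beyond their intervals, and those that did were SF3B1 over SF3B2, SF3A2 over SF3A1 (0.13, 0.03 to 0.24) and PHF5A over SF3B6 (0.16, 0.02 to 0.29). With counts divided by 2, an alternative explained below, the intervals of SF3A2 over SF3A1 and of PHF5A over SF3B6 widen to include 0. The shRBM39 order ran SF3B1, SF3B4, SF3B3, SF3A2, SF3A1, SF3B2, SF3B5, SF3A3, PHF5A, SF3B6, and 5 of the 9 neighbouring pairs did not differ. There SF3A1 stood above SF3B2 by 0.25 (0.21 to 0.29) and SF3A3 above PHF5A by 0.18 (0.08 to 0.28). Over the 10 genes the 2 orders had a Spearman correlation of 0.66 (Pearson 0.95), and over the 9 without SF3B1 one of 0.53 (Pearson 0.68); the genes share the same 4 libraries. The ratio and the log2 length of the gene on the chromosome had a Spearman correlation of 0.33 in shControl and 0.38 in shRBM39 over the 10 genes.

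When IP and input were compared over both cultures, with culture and fraction as additive terms, 8 of the 10 transcripts were higher in the IP by edgeR's quasi-likelihood test at a Benjamini-Hochberg adjusted p under 0.05, against 19.2% of all features (17.6% were lower, with 0 of the 10 among them). That fit leaves 1 residual degree of freedom, and a true difference between the cultures enters its error. SF3B1 had a log2 change of 2.44 (edgeR adjusted p = 7.29e-07). Under the alternatives its adjusted p ran from 2.50e-36 (edgeR without the count filter) to 9.00e-11 (edgeR with DESeq2 size factors). With 1 residual degree of freedom, the size of such a value is no measure of how reproducible the recovery is. SF3A2 had 0.83 (edgeR adjusted p = 0.000338) and SF3B4 0.78 (edgeR adjusted p = 0.000569). SF3A3, at 0.47, had an edgeR adjusted p of 0.0420. SF3B5, at 0.48, passed with edgeR (adjusted p = 0.0257) but not with DESeq2 (adjusted p = 0.119). The 2 that missed were PHF5A (0.29, edgeR adjusted p = 0.134) and SF3B6 (0.15, edgeR adjusted p = 0.459).

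The input libraries were then compared to ask how the subunit transcripts differed between the cultures before precipitation. In the input labelled shRBM39, 9 of the 10 had a log2 ratio over shControl above 0, and 7 of these had an interval above equality (28.5% of all features), while SF3B6 had an interval below it (26.7% of all features). Among features with a protein-coding symbol these shares were 34.4% and 29.0%. None of the 10 was listed as at least 2-fold higher or lower, against 5.10% and 5.74% of all features. The median of the 10 was 0.59, against -0.01 over all features and 0.02 over those with a protein-coding symbol. The 3 SF3A genes had a median of 0.88 and the 7 SF3B genes one of 0.34.

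SF3A2 and SF3B1 lay just under the 2-fold line. SF3A2 went from 1074 counts in shControl to 2162 in shRBM39, a log2 ratio of 0.996 (0.89 to 1.10). SF3B1, with 2106 and 4196 counts, stood at 0.98 (0.91 to 1.06). SF3A2 was listed as higher when no count filter was applied before scaling (log2 1.0048). SF3A3 followed at 0.88 (0.82 to 0.93), SF3B2 at 0.72 (0.68 to 0.75), SF3A1 at 0.60 (0.55 to 0.64) and SF3B3 at 0.59 (0.49 to 0.69).

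The 4 short-protein or low transcripts stood lower. SF3B4 was at 0.34 (0.15 to 0.54). For SF3B5 (0.21, -0.03 to 0.45) and PHF5A (0.10, -0.02 to 0.22) a difference between the inputs was not detectable at this depth. SF3B6 had 1290 counts in shControl and 1032 in shRBM39, a log2 ratio of -0.34 (-0.45 to -0.22). In all, 40 of 45 pairs of subunits differed beyond their intervals in this comparison, and here too no share for pairs of other features is given. SF3A2 did not differ from SF3B1 (0.01, -0.12 to 0.14) or from SF3A3 (0.12, -0.00216 to 0.24), nor did SF3A1 and SF3B3 (0.01, -0.10 to 0.11), SF3B4 and SF3B5, or SF3B5 and PHF5A beyond their intervals. PHF5A stood above SF3B6 by 0.44 (0.27 to 0.60). Across the 10 genes the input ratio and the log2 gene length had a Spearman correlation of 0.59.

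The genes with the letters CCGGAAG in their start window covered the whole range of input ratios, from SF3B6 at -0.34 to SF3A2 at 0.996. The 2 without them, SF3B5 and SF3B1, stood at 0.21 and 0.98.

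**Figure D3:**
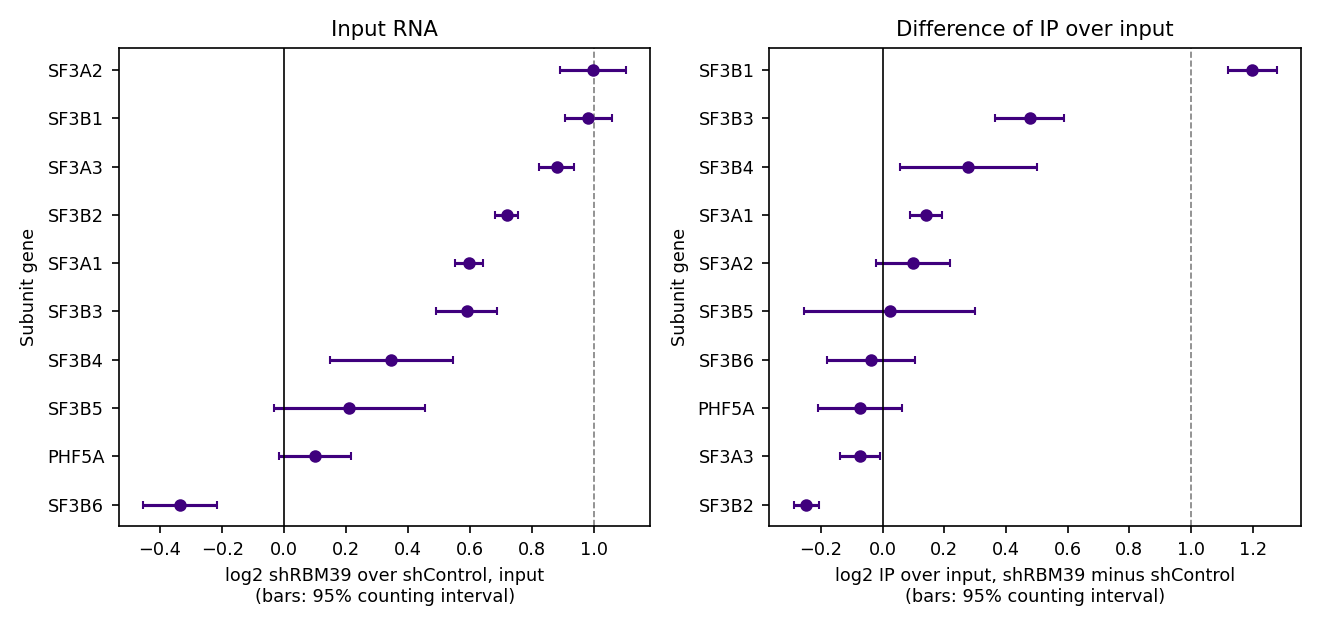
Left, log2 ratio of shRBM39 over shControl in the input; right, log2 IP over input in shRBM39 minus that in shControl; bars are 95% counting intervals and the dashed line marks 2-fold. SF3A2 and SF3B1 lead on the left at 0.996 and 0.98 and SF3B6 lies at -0.34, while on the right SF3B1 stands alone past 2-fold at 1.20.

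The last comparison asked whether recovery differed between the cultures, as log2 IP over input in shRBM39 minus that in shControl. It uses the same input libraries as the comparison above. SF3B1 was listed as higher, with a difference of 1.20 (1.12 to 1.28), and 0 of the 10 as lower, against 4.39% and 2.74% of all features. The next was SF3B3 at 0.48 (0.36 to 0.59), and SF3B1 exceeded it by 0.72 (0.59 to 0.86). SF3B4 stood at 0.28 (0.06 to 0.50) and SF3A1 at 0.14 (0.09 to 0.19). SF3B2 stood at -0.25 (-0.29 to -0.21) and SF3A3 at -0.07 (-0.14 to -0.01). In all 4 of the 10 had an interval above 0, against 19.7% of all features and 20.1% of those with a protein-coding symbol. An interval below 0 was found for 2, against 21.5% and 26.0%. With counts divided by 2 the intervals of SF3B4 and SF3A3 included 0. The intervals of SF3A2 (0.10), SF3B5 (0.02), SF3B6 (-0.04) and PHF5A (-0.07) included 0.

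In the same comparison the 10 hepatocyte and hepatoma markers had a median difference of -0.86, with ALB and AFP listed as lower (2.74% of all features). In the shRBM39 IP their median log2 IP over input was -0.85 with 4 of 10 listed as lower (9.00% of all features). In shControl the median was -0.29 with 0 of 10 listed as lower (11.3% of all features). The part of this in the subunits' values was not tested. Between the inputs the same 10 markers had a median log2 ratio of -0.10 for shRBM39 over shControl. There 1 of the 10 was listed as lower (5.74% of all features) and 0 as higher (5.10%), which their near-equal summed levels do not show.

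The difference of ratios also depended on the scaling. Scaled to total counts, the median of all features shifted by -0.19, and SF3A1 (-0.05), SF3A2 (-0.10) and SF3B5 (-0.17) turned below 0. The intervals wholly below 0 were then those of SF3A1 (-0.104 to -0.003), SF3A3, SF3B2, SF3B6 and PHF5A. The median difference on that scale was -0.20 over all features and -0.13 over the 10 subunits. The 10 thus did not stand lower than features in general by their median. An interval above 0 was then found for 9.86% of all features. On that scale SF3B1 kept a difference of 1.005 (0.925 to 1.084), SF3B3 was at 0.28 (0.17 to 0.39) and SF3B4 at 0.08 (-0.14 to 0.31). The order of the subunits is the same under every scaling. Of its 9 neighbouring pairs, 7 did not differ beyond their intervals, and the exceptions were SF3B1 over SF3B3 and SF3A3 over SF3B2 (0.17, 0.10 to 0.25).

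RBM39 mRNA itself, whose protein the antibody binds, showed values near those of SF3B1 in this comparison. Its log2 IP over input was 1.36 (1.33 to 1.39) in shControl and 2.58 (2.55 to 2.62) in shRBM39, a difference of 1.23 (1.18 to 1.27). In the inputs the 2 transcripts stood apart, with RBM39 at -0.13 and SF3B1 at 0.98.

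The make-up of the subunit counts followed SF3B1. SF3B1 held 7.49% (Wilson 95% interval 7.19 to 7.80) of the 28115 counts on the 10 genes in the shControl input and 15.6% (15.4 to 15.9) of 100777 in the shControl IP. In the shRBM39 libraries it held 9.25% (8.99 to 9.52) of 45351 counts in the input and 35.3% (35.1 to 35.5) of 185241 in the IP. SF3B2 had held the largest share in the other 3 libraries, at 34.9% and 35.2% in shControl input and IP and 35.9% in shRBM39 input, and held 24.3% in the shRBM39 IP. Longer transcripts give more counts, so these shares compare libraries and not genes. The summed level of the 10 was 1305 CPM (input) and 2231 CPM (IP) in shControl and 2085 and 4476 CPM in shRBM39. Without SF3B1 it was 1207, 1882, 1892 and 2896 CPM.

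**Figure D4:**
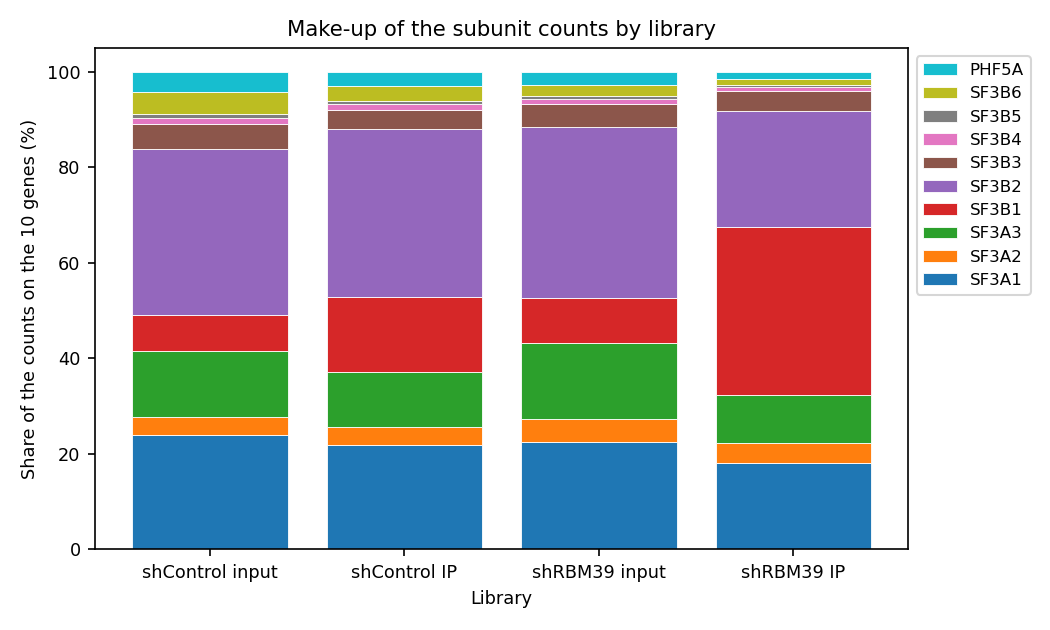
Share of the counts on the 10 genes held by each gene (%), stacked to 100, in each of the 4 libraries. The SF3B1 segment grows from 7.49% in the shControl input to 35.3% in the shRBM39 IP, where it is the largest.

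The features most like SF3B1 were sought by Euclidean distance over its log2 IP over input in each culture and its log2 input ratio, among 14473 other features with at least 200 counts in all. The nearest was AKAP9, which encodes a large scaffold protein of the centrosome and Golgi, at a distance of 0.42. Its counts were 4137 (input) and 35278 (IP) in shControl and 6400 and 95163 in shRBM39, with log2 ratios of 2.02 and 2.97 for IP over input and 0.62 for the inputs. MAPK8IP2 followed at 0.83 but had 16 and 20 counts in the inputs. ICE1, a subunit of the little elongation complex, lay at 1.03, with 1.76, 2.07 and 0.63. The clone-named features RP11-485O10.3 and RP11-435D7.3 completed the 5 at distances of 1.02 and 1.04.

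Features that overlap a member or resemble it were looked up. In the RefSeq annotation, CCDC157 overlaps SF3A1 by 271 bases on the opposite strand and had 104 to 355 counts, where SF3A1 had 6696 to 33524. The strand setting of the counting is not given in the sources used here. The pseudogenes SF3A3P1 and SF3A3P2 had at most 2 counts in each library. Small nucleolar RNA genes lie inside SF3B1 (LOC124900524, 137 bases), SF3B2 (SNORD13F, 85 bases) and SF3B3 (SNORD111 and SNORD111B). SNORD111 had at most 2 counts in each library and SNORD111B 0, and the other pair has no row of its own among the features compared here.

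Other genes of the splicing machinery were described by lists drawn up with earlier results of these data known. The 9 other U2 snRNP core proteins, SNRPA1, SNRPB2 and the Sm ring, had medians of -0.04 and 0.08 for log2 IP over input in shControl and shRBM39 and -0.06 for the input ratio. None of the 9 was listed in either direction in those comparisons. Each single direction there held 5.10% to 11.3% of all features. Their largest values were those of SNRPB, an Sm protein, at 0.87 (0.84 to 0.90), 0.45 (0.42 to 0.47) and 0.68 (0.65 to 0.72). SNRPE stood at -0.49 (-0.62 to -0.36) in the inputs.

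The 15 U2-associated proteins had medians of 0.06 and 0.12 for IP over input. In shRBM39 CHERP, a U2-related protein, was listed as higher at 1.03 (0.95 to 1.10), as were 5.29% of all features. For the input ratio their median was 0.57, and 4 of 15 were listed as higher, against 5.10% of all features. Among these were DDX46, the helicase that remodels U2 snRNP at the branch point (1.26, 1.21 to 1.32), DHX15, which disassembles spliceosomes (1.07, 1.01 to 1.14), and CHERP (1.02, 0.90 to 1.14).

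Of the 16 U4/U6 and U5 tri-snRNP proteins, 7 were listed as higher in the shRBM39 input (5.10% of all features) and 0 as lower (5.74%), with a median of 0.37. SNRNP200, the helicase that unwinds U4 from U6, led at 1.83 (1.77 to 1.90), followed by the GTPase EFTUD2 at 1.59 (1.46 to 1.73), the helicase DDX23 at 1.54 (1.47 to 1.61) and PRPF6 at 1.49 (1.40 to 1.58). Their medians for IP over input were 0.42 and 0.49, with CD2BP2 (1.06, 0.93 to 1.19) and SNRNP40 (1.001, 0.902 to 1.102) listed as higher in shControl (7.70% of all features) and 0 in shRBM39. The 9 factors of 3' splice site recognition had medians of 0.34 and 0.57 for IP over input and 0.15 for the inputs. U2AF2, which binds the polypyrimidine tract, was listed as higher in shControl (7.70% of all features) at 1.08 (1.03 to 1.13) and stood at 0.94 (0.90 to 0.98) in shRBM39. RBM39, which belongs to this list, was the other listed as higher there and the 1 listed in shRBM39 (5.29% of all features). U2AF1, the partner of U2AF2 at the splice site, was listed as lower in shControl (-1.07, -2.09 to -0.04), as were 11.3% of all features, on 18 counts in each of these 2 libraries. Those raw counts were equal, so the ratio came from the scaling of the libraries alone, and no depletion of U2AF1 is read from it. In the difference of ratios RBM39 and ZRSR2, a factor of minor introns (1.24, 1.01 to 1.46), were listed as higher (4.39% of all features). The 8 U1 snRNP proteins had medians of 0.21 and 0.21 for IP over input and 0.42 for the inputs. SNRNP70 was the 1 listed, as higher in the inputs (5.10% of all features) at 1.05 (0.98 to 1.12).

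**Figure D5:**
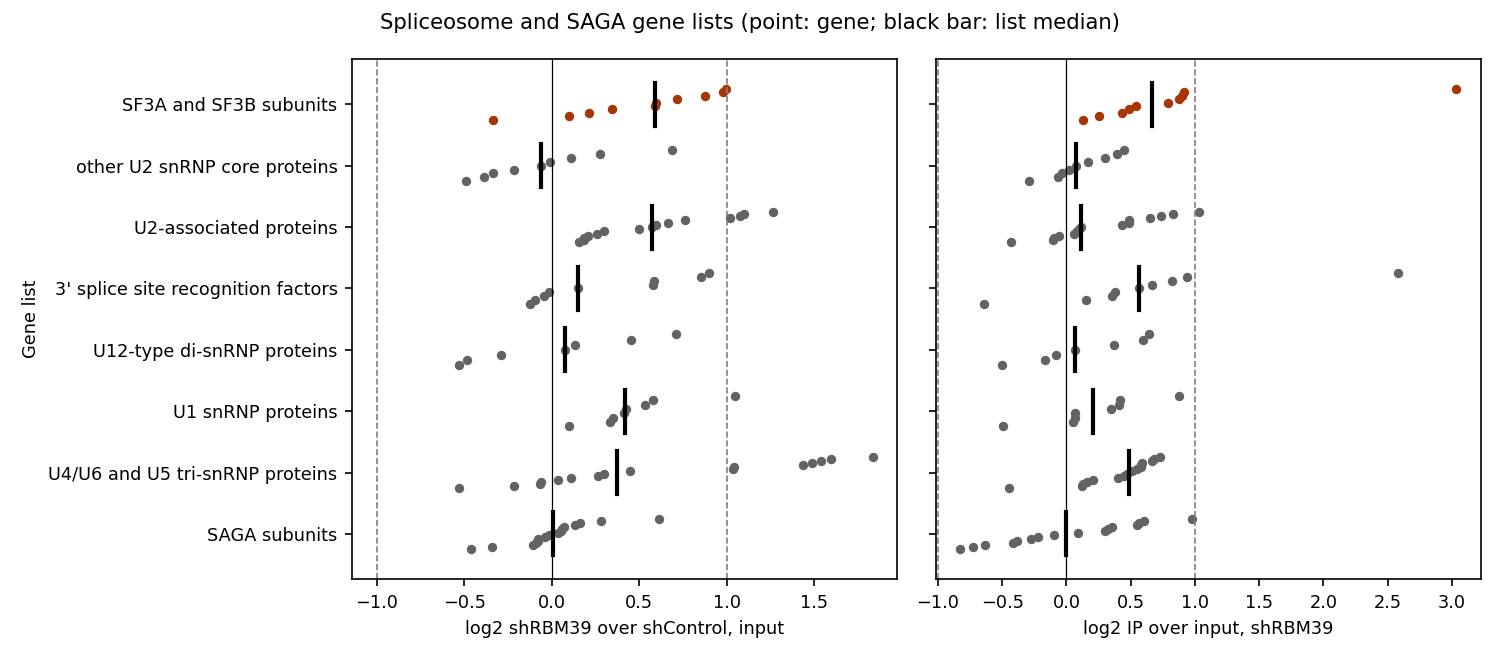
Log2 ratio of shRBM39 over shControl in the input (left) and log2 IP over input in shRBM39 (right) for 8 gene lists, 1 point per gene, with the list median as a black bar and dashed lines at 2-fold. On the right SF3B1 at 3.03 and RBM39 at 2.58 are the 2 points far from the others, and on the left the tri-snRNP list reaches 1.83.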

How the data were processed

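The authors deposited raw read counts by gene symbol, as whole numbers without normalization per the file headers and values. The submitters' processing notes name the build hg38 and the tools HISAT2 2.0.4, StringTie 1.3.4d and cutadapt 1.9. How they were used, what counted the reads and with which strand setting is not given in the sources used here. Of the counts from 3 to 6 in a library, 71.4% to 75.6% were even. Whether read mates were counted 1 by 1 was not tested. Intervals would then be too narrow, so an alternative divided counts by 2.

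Features with 10 or more counts in 2 or more libraries were scaled by TMM (edgeR 4.0.16, R 4.3.3), and CPM are counts per 1000000 of the scaled library. Log2 ratios had 0.5 added to each count. Intervals are exact conditional (Clopper-Pearson) 95% intervals, or, for differences between ratios, from the counting standard error. The additive test was edgeR's quasi-likelihood test with Benjamini-Hochberg adjustment over 19210 features; DESeq2 1.42.0 was its alternative. The pairwise log2 ratios, their difference between the cultures and the edgeR test were tried on simulated data. The other steps were not, and the counts simulated for the ratios varied by counting error alone. Other alternatives were total counts, DESeq2 size factors, TMM without mitochondrial and 7SK/7SL RNAs, no count filter, and 5 added to each count.

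The members and lists were chosen with earlier results of these data known. Named are the 10 members, RBM39, the 5 features nearest SF3B1, features overlapping a member, and up to 4 genes of each list by size of log2 ratio among those with at least 200 counts. U2AF1, listed as lower on few counts, is named besides. A gene that this rule names is not reported here. CCGGAAG was chosen after the windows were read. Coordinates and sequences are those of RefSeq on GRCh38.p14. Columns of other samples numbered 0.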

Additional observations from a re-analysis of the deposited data

How the results depend on the processing

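SF3B1 was listed as higher in IP over input of both cultures and in the difference between them under all 6 alternatives, and 0 of the 10 subunits were listed as lower in any of them. Its ratio ran from 1.83 to 1.93 in shControl and from 2.92 to 3.15 in shRBM39, and its difference from 1.005 to 1.226. Without the count filter, which changes the TMM factors, 3 subunits in place of 1 were listed as higher in the shRBM39 IP, SF3B3 (1.015) and SF3B4 (1.03) joining SF3B1, and 1 in place of 0 in the inputs (SF3A2). Of the 33840 features then compared, 4.8% were listed as higher in that IP and 3.77% in the inputs. The count of intervals above equality in the shRBM39 IP was 9 of 10 in place of 10 with total counts, with TMM without mitochondrial and 7SK/7SL RNAs and with counts divided by 2, SF3B6 being the exception. In that order, 27.0%, 31.3% and 27.6% of all features had such an interval there, in place of 32.9%. In the difference, 2 to 5 subunits had an interval above 0 and 1 to 5 one below, total counts giving 2 and 5. The share of all features with an interval above 0 moved as well. It ran from 9.86% (total counts) to 19.4% (DESeq2 size factors) under the alternatives, in place of 19.7%. With counts divided by 2, the pairs of subunits that differed numbered 28, 36, 35 and 23 of 45 in the 4 comparisons. Without that division they numbered 33, 38, 40 and 29, and no share for pairs of other features is given. In the additive test 8 subunits passed under each edgeR alternative and 7 with DESeq2. Of all features, those that passed as higher numbered 3873 of 19210 by edgeR with DESeq2 size factors. They numbered 4628 of 33840 by edgeR without the count filter and 2598 of 19210 with DESeq2. No replicate could be left out because each group has 1 library; the additive test already pairs IP with input by culture. Depth limits SF3B5 and SF3B4 most.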

Other observations

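SF3B proteins also work outside U2 snRNP. SF3B is shared with the U12-type particle that splices minor introns. The 7 proteins particular to that particle had medians of -0.03 and 0.07 for log2 IP over input in shControl and shRBM39 and 0.07 for the input ratio, with 0 listed in either direction. In these comparisons each single direction held 5.10% to 11.3% of all features. ZCRB1 stood at -0.81 (-0.86 to -0.75) for IP over input in shControl and PDCD7 at 0.80 (0.72 to 0.89). SF3B3 and SF3B5 are subunits of the SAGA coactivator. Its 16 other subunits had medians of 0.04 and -0.0017 for IP over input and 0.01 for the inputs, with 0 listed, against the same shares of all features. KAT2A, its acetyltransferase, stood at 0.995 (0.798 to 1.20) in shControl.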
